A study of Mus musculus with 6 samples.

Results

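The genes described here are 48 genes of mitosis and of the G2/M transition, chosen by symbol from the 18019 genes of the deposited expression table, and all 48 were found in it. Polyadenylated RNA of RAW264.7, a macrophage cell line from the mouse, was sequenced in 6 libraries, each from cells induced with lipopolysaccharide (LPS), a bacterial product that activates macrophages. The control group (n = 3) received no further treatment, and the other group (n = 3) was treated with TPPU, a small molecule that blocks soluble epoxide hydrolase, by which epoxyeicosatrienoic acids are degraded. The series title sets the comparison in the context of M1 macrophage polarization in osteoarthritis of the jaw joint. No source used here gives doses, times or whether the replicates were grown separately, so p-values measure the spread between these libraries, which may be technical. All libraries come from 1 cell line and carry the same batch label. The descriptions of the TPPU samples also cite columns of another table, not used here, under a name that refers to a knockdown of LIS1, a partner of the dynein motor at the mitotic spindle. Pafah1b1, which encodes LIS1, stood at 11.7, 14.2 and 6.52 FPKM in control replicates 1, 2 and 3 and at 10.7, 13.5 and 14.2 FPKM in TPPU replicates 1, 2 and 3.

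A cell enters mitosis when cyclin-dependent kinase 1 (Cdk1), bound to a B-type cyclin, is switched on by CDC25 phosphatases with the help of Polo-like and Aurora kinases. Chromosomes are then compacted by condensin and topoisomerase, captured by kinetochores and moved by spindle motors. A checkpoint holds the anaphase-promoting complex, a ubiquitin ligase, until every chromosome is attached. Destruction of cyclin B and securin then splits the sister chromatids, and cytokinesis follows. Most of these genes are transcribed late in the cell cycle by a shared programme in which the DREAM and MuvB complexes, B-MYB and FOXM1 act on promoters that carry a cell cycle homology region (CHR) and CCAAT boxes. Their summed RNA is therefore used as a marker of dividing cells. In bulk RNA, fewer cells in G2 or mitosis and less RNA per such cell cannot be told apart.

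Promoters are shown because the CHR and the CCAAT box are what these genes are known to share, and the rule that chose the genes did not use sequence. RefSeq promoters (build GRCm38.p6, the 250 bases before to 50 after the start site) were matched for 40 of the 48 genes, as 43 windows of 300 bases, some of which overlap because a gene has neighbouring start sites. The 250 bases before the start site are printed 5′ to 3′ along the gene for 6 members. They are 4 of the 5 genes whose TPPU values all lay above the control values, Plk1, Ckap2, Cdc20 and Prc1 (the last at the more downstream of its start sites), together with the kinase gene Cdk1 and the topoisomerase gene Top2a. The remaining gene of those 5, Pttg1, is not printed, and its window held neither a TTTGAA nor a CCAAT match. Capitals mark the CHR letters TTTGAA and the box CCAAT, which read TTCAAA and, for the box, ATTGG where they lie on the other strand.
Plk1 (chr7:122159185-122159434, plus strand): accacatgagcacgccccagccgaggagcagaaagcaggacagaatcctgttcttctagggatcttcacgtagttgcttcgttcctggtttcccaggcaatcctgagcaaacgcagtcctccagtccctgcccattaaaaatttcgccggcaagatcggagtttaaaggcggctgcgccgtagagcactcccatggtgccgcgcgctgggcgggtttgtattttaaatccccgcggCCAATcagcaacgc
Ckap2 (chr8:22185820-22186069, minus strand): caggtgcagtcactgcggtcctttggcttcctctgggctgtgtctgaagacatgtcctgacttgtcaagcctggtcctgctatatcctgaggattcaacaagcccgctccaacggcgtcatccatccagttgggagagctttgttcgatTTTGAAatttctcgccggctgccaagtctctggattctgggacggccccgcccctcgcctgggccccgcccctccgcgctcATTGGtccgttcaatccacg
Cdc20 (chr4:118437344-118437593, minus strand): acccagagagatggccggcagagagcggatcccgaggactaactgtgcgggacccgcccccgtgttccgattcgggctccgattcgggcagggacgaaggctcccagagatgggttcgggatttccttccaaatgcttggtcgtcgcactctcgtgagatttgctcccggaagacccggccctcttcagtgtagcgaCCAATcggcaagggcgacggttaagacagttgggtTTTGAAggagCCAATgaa
Prc1 (chr7:80294226-80294475, plus strand): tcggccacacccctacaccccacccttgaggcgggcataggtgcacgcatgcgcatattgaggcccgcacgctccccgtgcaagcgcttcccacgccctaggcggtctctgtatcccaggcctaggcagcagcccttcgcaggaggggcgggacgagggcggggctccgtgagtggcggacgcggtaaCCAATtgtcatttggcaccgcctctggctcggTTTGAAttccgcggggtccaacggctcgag
Cdk1 (chr10:69352913-69353162, minus strand): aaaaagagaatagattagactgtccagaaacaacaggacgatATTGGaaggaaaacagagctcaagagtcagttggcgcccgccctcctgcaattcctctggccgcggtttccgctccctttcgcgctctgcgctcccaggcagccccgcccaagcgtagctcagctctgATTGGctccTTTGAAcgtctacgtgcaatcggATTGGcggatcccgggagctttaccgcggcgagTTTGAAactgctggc
Top2a (chr11:99024190-99024439, minus strand): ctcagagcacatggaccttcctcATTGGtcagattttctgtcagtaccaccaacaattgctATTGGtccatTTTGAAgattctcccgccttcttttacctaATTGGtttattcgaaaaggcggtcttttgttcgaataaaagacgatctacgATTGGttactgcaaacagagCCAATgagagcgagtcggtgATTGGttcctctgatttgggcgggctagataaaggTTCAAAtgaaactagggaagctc

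The letters TTTGAA, on either strand, were in 34 of the 43 member windows (79.1%), against 17.9% of all 32851 RefSeq mouse promoter windows of the same length. In 29 of those 34 windows (85.3%) a match began within 50 bases of the start site, against 27.6% of all windows with the letters. CCAAT was in 35 member windows (81.4%, against 37.4% of all), and more than one copy was in 51.2%, against 11.7%. Both motifs together were in 72.1% of member windows and in 6.95% of all. The variant TTTAAA, which reads the same on both strands, was in 20.9% against 13.2%, and the E2F letters TTCGCGC or TTGGCGC were in 16.3% against 3.89%. In Cdc20 the TTTGAA match began 18 bases before the start site and between the CCAAT boxes, which began at 53 and 8 bases before it. In Plk1 the CCAAT box began 14 bases before the start site, and the TTTGAA match lay 31 bases after it, outside the printed stretch. Top2a had 6 CCAAT matches and 2 TTTGAA matches. The Pttg1 window held none of these letters. These matches describe the windows and are not measured binding sites. The 30 tested members with TTTGAA in a window had a median log2 fold change of 0.15 (-0.12 to 0.42), and the 8 tested members with a window but no such match had a median of 0.23 (-0.1 to 0.34). The ranges overlapped over most of their length. Without control replicate 3, a library that stood apart, the medians were 0.06 and 0.04.

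No mitotic gene passed the test between TPPU and control. Values are FPKM, or fragments per kilobase normalized by library size, and fold changes are differences of mean log2(FPKM + 1), which understate the change of low genes. The depth estimated from the values was 17.9 to 23.0 M (mega) fragments per library. Of the 48 genes, 46 had at least 1 FPKM in at least 3 libraries and were tested. None of them passed that filter through TPPU libraries alone. In limma over 9728 genes, 0 of the 46 had an adjusted p under 0.05 in either direction (0.0% of all genes tested), and the smallest was 0.564. At an unadjusted p under 0.05, 2 were higher (408 of 9728, or 4.19%, of all genes) and 0 were lower (3.7% of all genes). The 2 were Plk1 and Ckap2. All 3 TPPU values lay above all 3 control values for 5 members, or 10.9% of the 46, against 7.48% of all genes, and below them for 1 member, against 7.88% of all genes. These shares are near the background.

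The direction leaned one way without reaching the threshold for any single gene. Changes were positive for 36 of 46 members, or 78.3%, against 54.4% of all genes tested, and the median log2 fold change was 0.15, against 0.02 over all genes. Without control replicate 3 the median was 0.05 and 31 changes were positive (53.8% of all genes). Without that library and TPPU replicate 1, the other library with a low share of mitochondrial transcripts, it was 0.07, with 33 positive (54.5% of all genes). Fully separated groups, TPPU above, were then found for 7 members without control replicate 3 (17.0% of all genes) and for 16 without both libraries (24.8% of all genes), and TPPU below for 1 (12.4%) and 4 (19.3%). This last exclusion was chosen after the data had been seen.

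Control replicate 3 was the lowest of the 6 libraries for 26 of the 46 members, and the highest for 3. Over all 9728 genes tested, control replicate 3 was the lowest for 2696 and the highest for 3383. Its median deviation from a member's mean over the 6 libraries was -0.21 on the log2 scale, against 0.04 over all genes tested. Single members lay between -1.35 and 0.21. The other libraries had median deviations of 0.08 and -0.04 (control replicates 1 and 2) and 0.02, 0.11 and 0.06 (TPPU replicates 1, 2 and 3). Control replicate 1 thus lay above TPPU replicates 1 and 3 by this measure. TPPU replicate 2 was the highest library for 16 members. The summed FPKM of the 48 genes was 359.8, 332.2 and 288.1 in the controls and 351.6, 369.9 and 348.3 with TPPU, so the groups overlapped.

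**Figure D1:**
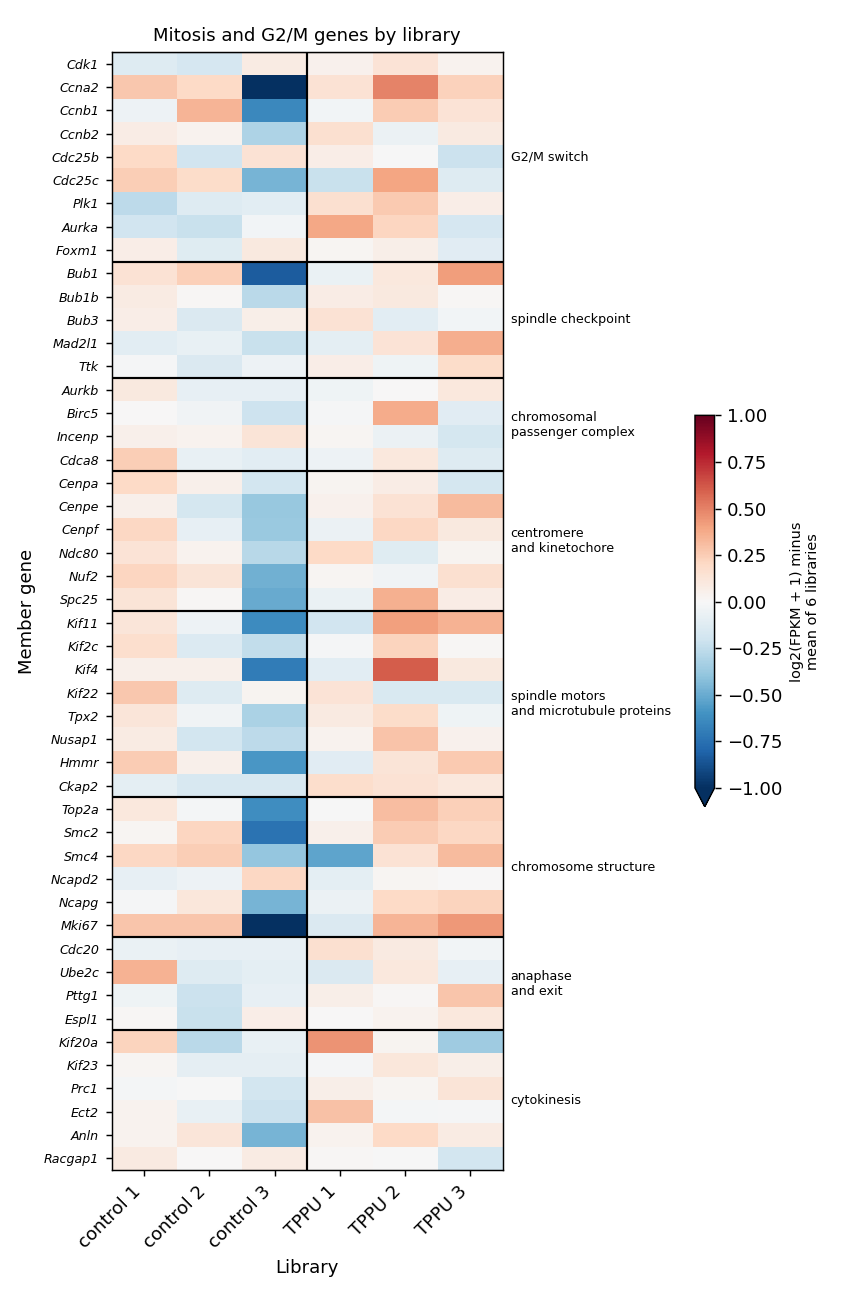
Level of each of the 48 mitotic genes (rows, grouped by role) in each library (columns), as log2(FPKM + 1) minus the mean over the 6 libraries; red is above and blue below that mean, and values under -1 share the darkest blue. The column of control replicate 3 holds most of the dark blue cells, led by Ccna2, Mki67 and Bub1.

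Base composition moved with the deviations of control replicate 3. Across the 46 members, its deviations had a Spearman's rho of 0.60 with the GC content of the transcript, and across 9512 genes tested the rho was 0.61. TPPU replicate 3 had a trend of the opposite sign, with a rho of -0.60 over the members and -0.42 over all genes, and so did control replicate 2 (-0.36 and -0.46). The other libraries lay between -0.19 and 0.09 over the members. These are descriptions across genes that share the libraries. The members had a median GC content of 46.9%, against 50.0% for all genes tested. The 26 members lowest in control replicate 3 had a median GC content of 44.7% (39.7% to 50.4%), and the other 20 had 52.7% (40.2% to 56.1%). With a trend on GC content removed from every library, the median over the 46 was 0.13 and 36 changes were positive, against 54.7% of all genes. TPPU values were then all above the controls for 4 members (11.1% of all genes), namely Plk1, Cdc20, Cenpe and Ncapg, and all below for 1, Racgap1 (9.3% of all genes). The mitochondrial share of FPKM was 0.371% for control replicate 3 and 0.914% for TPPU replicate 1, while the other libraries had 1.46% to 1.85%, and the part of RNA quality in the result was not tested.

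**Figure D2:**
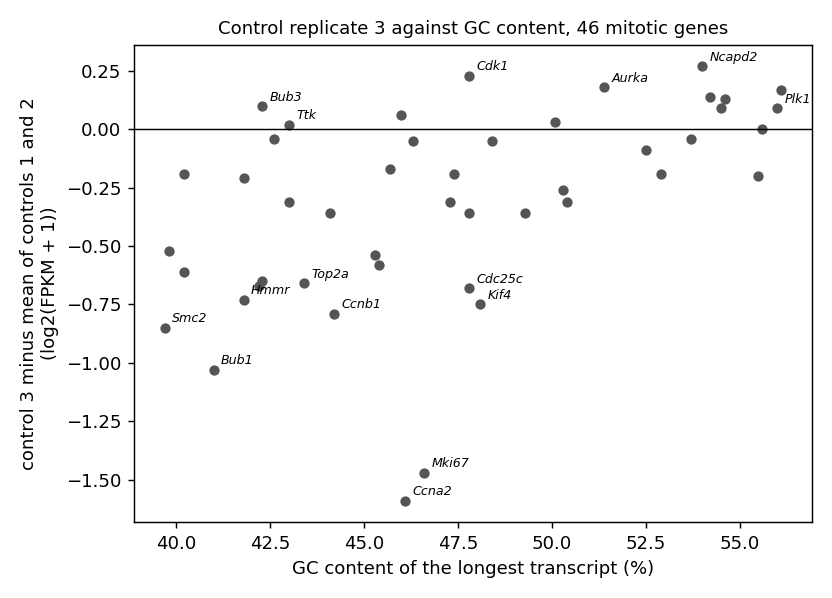
Control replicate 3 minus the mean of control replicates 1 and 2, in log2(FPKM + 1), against the GC content of the longest annotated transcript (%), 1 point per tested mitotic gene (46). Points of low GC content lie mostly below 0, Ccna2 and Mki67 furthest, while Cdk1, Aurka and Ncapd2 lie above it.

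The genes of the G2/M switch included the member with the smallest p, Plk1, and the member with the largest change, Ccna2. Of 9 members, 7 had positive changes (54.4% of all genes tested) and 1 had all TPPU values above the controls (7.48% of all genes). The median was 0.15, or 0.02 without control replicate 3. Plk1, the Polo-like kinase that helps activate Cdk1 and runs the spindle (chromosome 7, 122159439 to 122169873, mm10), measured 3.32, 3.74 and 3.81 FPKM in the controls and 4.77, 5.21 and 4.43 with TPPU. Every TPPU value lay above every control value. The log2 fold change was 0.33 (SE 0.11, limma adjusted p = 0.564), or 0.36 without control replicate 3, and the adjusted p ranged from 0.0577, with libraries weighted by quality, to 0.989 over the alternatives.

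Aurka, the Aurora kinase of the centrosome, measured 12.0, 11.7 and 13.5 in the controls and 18.4, 16.2 and 12.2 with TPPU. TPPU replicates 1 and 2 were above all controls and TPPU replicate 3 lay among them (log2 fold change 0.29, SE 0.15, limma adjusted p = 0.644). Cdk1, the kinase at the centre of the switch, measured 5.59, 5.43 and 6.65 against 6.43, 6.95 and 6.42. Its control replicate 3 value was inside the TPPU range, and the other controls were below it (0.15, SE 0.11). The groups of Aurka and Cdk1 no longer overlapped when that library was left out.

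Ccna2, which encodes the cyclin that partners CDK in S phase and G2, had the largest change of any member, 0.59 (SE 0.39, limma adjusted p = 0.718), and it rested on 1 library. Its values were 4.67, 4.42 and 0.85 in the controls and 4.22, 5.66 and 4.54 with TPPU. Without control replicate 3 the change was 0.06. Ccnb1, which encodes the main mitotic cyclin, measured 10.5, 14.1 and 6.64 against 10.7, 13.2 and 12.1, and its change of 0.24 (SE 0.22) turned to -0.02. Ccnb2, the other B-type cyclin gene, averaged 13.5 ± 2.0 and 14.9 ± 1.2 (SD, n = 3 per group).

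Foxm1, the transcription factor of late cell cycle genes, measured 6.36, 5.46 and 6.53 in the controls and 6.13, 6.33 and 5.50 with TPPU. The groups overlapped almost fully, with a log2 fold change of -0.03 (SE 0.11). Cdc25b, a phosphatase that starts Cdk1 activation, measured 11.3, 8.36 and 10.8 against 10.2, 9.65 and 8.22 (-0.1, SE 0.14). Its close relative Cdc25c stood at 1.33 ± 0.58 and 1.36 ± 0.57.

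The spindle checkpoint genes did not separate. Bub1b, which encodes the checkpoint kinase-like protein BUBR1 and had the highest mean level of the 48 genes (26.1 FPKM over 6 libraries), measured 27.6, 26.2 and 21.4 in the controls and 27.5, 27.9 and 26.2 with TPPU. Control replicate 3 alone lay below the rest, and the log2 fold change of 0.12 (SE 0.11) was 0.01 without it. Bub1, a kinase of the same checkpoint, averaged 5.14 ± 2.2 and 6.26 ± 1.3, with 2.63 in control replicate 3 as the lowest value. Bub3, the adaptor of both, averaged 18.5 ± 1.6 and 18.7 ± 1.7, and the checkpoint kinase gene Ttk 1.25 ± 0.11 and 1.48 ± 0.19.

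Mad2l1, which encodes the protein that blocks the anaphase-promoting complex, stayed below the filter. It stood at 0.66, 0.70 and 0.53 in the controls and at 0.67, 0.96 and 1.30 with TPPU, with 1 control above 1 TPPU value. The difference of 0.27 had an exact permutation p of 0.2 (two-sided), where 3 libraries against 3 cannot give less than 0.1. Cenpf, a kinetochore protein gene and the other member below the filter, ranged from 0.30 to 0.95 in the controls and from 0.62 to 0.95 with TPPU (difference 0.17, exact permutation p = 0.5). Estimated from depth and the longest annotated transcript (7557 bases for Mad2l1), these values correspond to 76 to 206 fragments of Mad2l1 and 63 to 242 of Cenpf per library. The lengths the authors used are not known, and shorter ones would give fewer fragments.

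The chromosomal passenger complex, which corrects wrong attachments and later marks the division plane, had the lowest median among the 8 role groups, 0.0, and held the 1 member with all TPPU values below the controls. Incenp, its scaffold (chromosome 19, 9872296 to 9899551), measured 21.9, 21.6 and 23.1 in the controls and 21.3, 20.2 and 18.5 with TPPU. The gap between the groups was narrow and the change was -0.15 (SE 0.09, limma adjusted p = 0.717). With the GC trend removed the Incenp groups overlapped and the change was -0.09.

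Aurkb, the kinase of the complex, measured 9.65, 8.40 and 8.42 against 8.69, 8.99 and 9.75, with partly overlapping groups (0.05, SE 0.11). Birc5, which encodes survivin, measured 3.74, 3.60 and 3.09 against 3.68, 5.11 and 3.36, where TPPU replicate 2 alone stood above the controls (0.16, SE 0.15). Cdca8, which encodes borealin, averaged 7.51 ± 1.2 and 7.20 ± 0.68. Among the subunit genes of this complex 2 changes were positive and 2 negative, and none of them passed the test.

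Among centromere and kinetochore genes control replicate 3 was the lowest library for each of the 5 tested, and the median of 0.09 was -0.05 without it. Cenpe, a motor that carries chromosomes to the spindle equator, measured 3.24, 2.61 and 2.15 in the controls and 3.22, 3.52 and 4.08 with TPPU. Control replicate 1 lay just above TPPU replicate 1, and the other values were separated (log2 fold change 0.34, SE 0.15, limma adjusted p = 0.627, and 0.23 without control replicate 3). Ndc80, which encodes the protein that grips microtubules, measured 1.53, 1.35 and 0.90 against 1.64, 1.11 and 1.34 (0.07, SE 0.17).

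Its partners in the same complex gave the same picture of overlap. Nuf2 averaged 2.31 ± 0.80 and 2.46 ± 0.24, and Spc25 1.07 ± 0.45 and 1.43 ± 0.37. Cenpa, the histone H3 variant that marks the centromere, measured 11.3, 10.1 and 8.44 against 9.94, 10.3 and 8.46 (-0.05, SE 0.13). Its lowest values in the groups were almost equal.

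**Figure D3:**
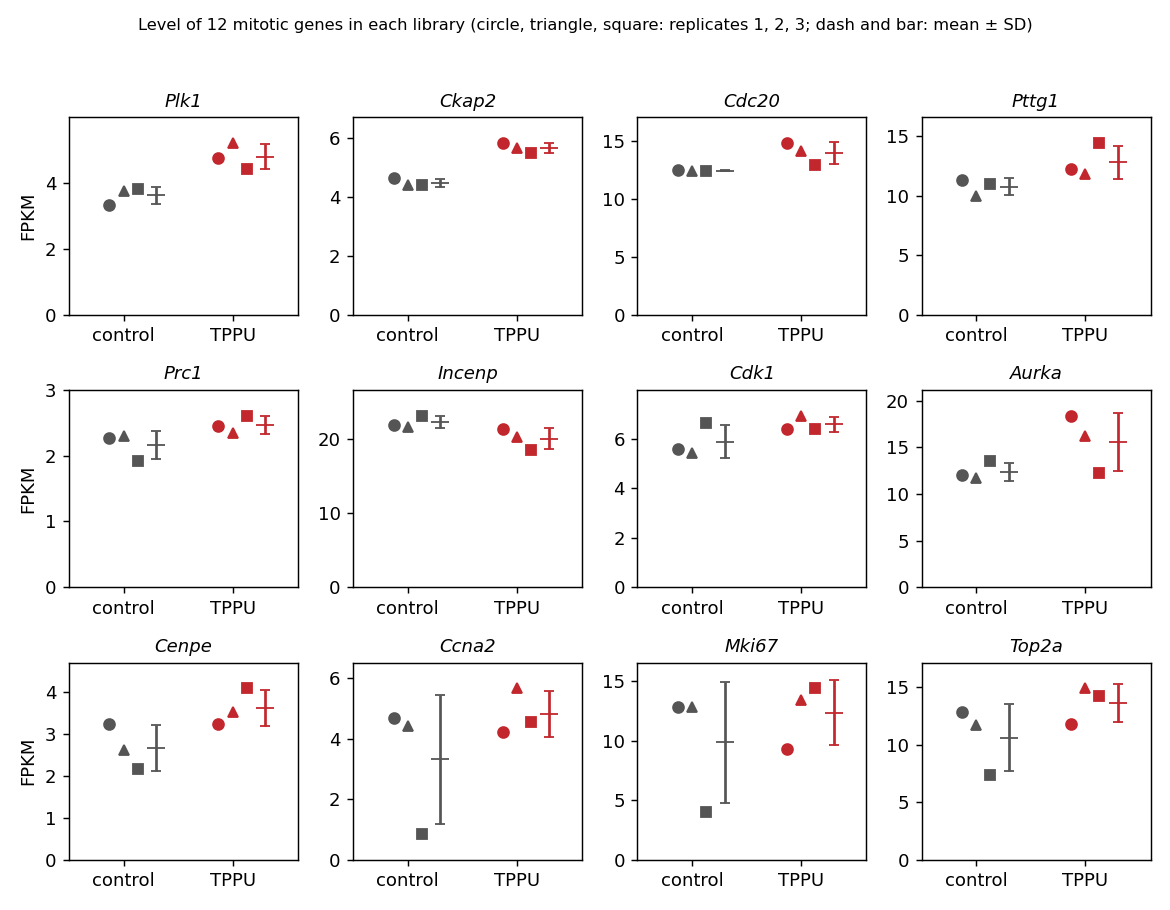
FPKM of 12 mitotic genes in each library (circles, triangles and squares are replicates 1, 2 and 3), with the mean ± SD of each group beside the points; axes start at 0. Plk1, Ckap2, Cdc20, Pttg1 and Prc1 have all TPPU points above the controls and Incenp has them below, while Ccna2, Mki67 and Top2a have 1 low control point.

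Motors and microtubule proteins of the spindle had positive changes in 7 of 8 members, beside 54.4% of all genes tested. The median was 0.21, or 0.1 without control replicate 3. Ckap2, which encodes a microtubule-associated protein of the spindle (chromosome 8, 22168160 to 22185819), measured 4.64, 4.42 and 4.40 in the controls and 5.84, 5.67 and 5.49 with TPPU. The groups were separated with little spread in either (log2 fold change 0.28, SE 0.10, limma adjusted p = 0.564), and the change was 0.27 without control replicate 3. Removal of the GC trend left a Ckap2 change of 0.21 with overlapping groups.

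Kif11, the motor that pushes spindle poles apart, measured 1.54, 1.25 and 0.51 against 1.05, 2.10 and 1.97. The control and TPPU values overlapped, and the change of 0.38 (SE 0.24) was 0.16 without control replicate 3. Kif4, a motor of chromosome arms, measured 2.98, 2.97 and 1.37 against 2.57, 4.85 and 3.10 (0.40, SE 0.25, or 0.15). Here TPPU replicate 2 was high and control replicate 3 low.

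Tpx2, which targets Aurora A to the spindle and was the second most abundant member, measured 26.6, 23.8 and 19.4 in the controls and 26.0, 27.8 and 23.7 with TPPU (0.16, SE 0.13). Kif22, a motor that binds DNA, was the member of this group with a negative change, at 6.05, 4.35 and 4.97 against 5.42, 4.25 and 4.26 (-0.12, SE 0.14). In both genes the groups overlapped. The depolymerizing motor gene Kif2c averaged 1.94 ± 0.44 and 2.24 ± 0.29, Nusap1, which bundles spindle microtubules, 2.36 ± 0.43 and 2.95 ± 0.40, and Hmmr, a spindle and hyaluronan-binding protein gene, 3.48 ± 1.3 and 3.98 ± 0.65.

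Genes of chromosome structure had the largest median of the role groups, 0.29 over 6 members, and it was 0.05 without control replicate 3. Mki67, the proliferation marker Ki-67 that coats mitotic chromosomes, measured 12.8, 12.8 and 4.0 in the controls and 9.29, 13.4 and 14.4 with TPPU. Its change of 0.42 (SE 0.37, limma adjusted p = 0.775) was -0.07 without that library. The lowest Mki67 values of each group fell in the libraries with the lowest mitochondrial share.

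Top2a, topoisomerase IIα, measured 12.8, 11.7 and 7.35 against 11.8, 14.9 and 14.2. The change of 0.36 (SE 0.19, limma adjusted p = 0.656) was 0.14 without control replicate 3. Condensin, the ring complex that compacts chromosomes, was not low as a unit in that library. Smc2, a core condensin subunit, measured 4.19, 4.95 and 2.07 against 4.31, 5.10 and 4.92 (0.34, SE 0.23, or 0.05), while Ncapd2, another subunit, measured 7.37, 7.54 and 9.19 against 7.24, 7.98 and 7.84 (-0.05, SE 0.12).

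Control replicate 3 was thus the lowest library for Smc2 and the highest for Ncapd2, whose transcripts have GC contents of 39.7% and 54.0%. The part of GC content in this split was not tested. Smc4, the partner of Smc2, has a GC content of 40.2% and averaged 4.05 ± 1.1 and 3.96 ± 1.4. Its lowest value was in TPPU replicate 1 (2.39), below control replicate 3 (2.74). Ncapg averaged 0.861 ± 0.37 and 1.17 ± 0.23 and reached 1 FPKM in 1 control and 2 TPPU libraries.

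The genes of anaphase and mitotic exit were the group in which control replicate 3 was lowest for 0 of 4 members. TPPU values all lay above the controls for 2 of the 4, beside 7.48% of all genes tested. A group of 4 is too small to be set against that share. The median of the 4 was 0.12, or 0.15 without control replicate 3. Cdc20, the activator of the anaphase-promoting complex (chromosome 4, 118432901 to 118437352), measured 12.5, 12.4 and 12.4 in the controls and 14.8, 14.1 and 12.9 with TPPU. The controls were nearly equal, and the lowest TPPU value was just above them (log2 fold change 0.15, SE 0.10, limma adjusted p = 0.71).

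Pttg1, which encodes securin, the inhibitor of separase, measured 11.3, 9.93 and 11.0 against 12.2, 11.8 and 14.4. The groups were separated, with TPPU replicate 3 the highest (0.23, SE 0.11, limma adjusted p = 0.638), but overlapped with the GC trend removed (0.18). Ube2c, whose protein supplies the ubiquitin for targets of the anaphase-promoting complex, measured 16.0, 11.2 and 11.5 against 11.1, 13.4 and 11.6. Control replicate 1 was the high value (-0.08, SE 0.15). Espl1, separase itself, averaged 2.48 ± 0.35 and 2.72 ± 0.14.

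Cytokinesis genes had positive changes in 5 of 6 members, beside 54.4% of all genes tested. The median was 0.12, or 0.07 without control replicate 3. Prc1, which bundles the microtubules of the central spindle, measured 2.27, 2.30 and 1.92 in the controls and 2.45, 2.35 and 2.61 with TPPU, separated by a narrow gap (log2 fold change 0.14, SE 0.12, limma adjusted p = 0.781). With the GC trend removed the Prc1 change was 0.08 and the groups overlapped. Kif20a, a central spindle motor, measured 4.24, 2.71 and 3.25 against 5.13, 3.56 and 2.51, so the highest and the lowest value were both TPPU libraries (0.08, SE 0.22). Racgap1, which encodes a subunit of centralspindlin, measured 9.04, 8.44 and 8.96 against 8.51, 8.38 and 7.27 (-0.12, SE 0.10).

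Kif23, the motor partner of Racgap1, averaged 5.67 ± 0.30 and 6.17 ± 0.31. Its change of 0.10 (SE 0.10) was positive and that of Racgap1 negative, both near their SE. Ect2, which activates the GTPase of the contractile ring, averaged 3.45 ± 0.38 and 4.02 ± 0.64, and Anln, which encodes the ring protein anillin, 6.02 ± 1.4 and 6.99 ± 0.46. No cytokinesis gene differed beyond the spread in the limma test.

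**Figure D4:**
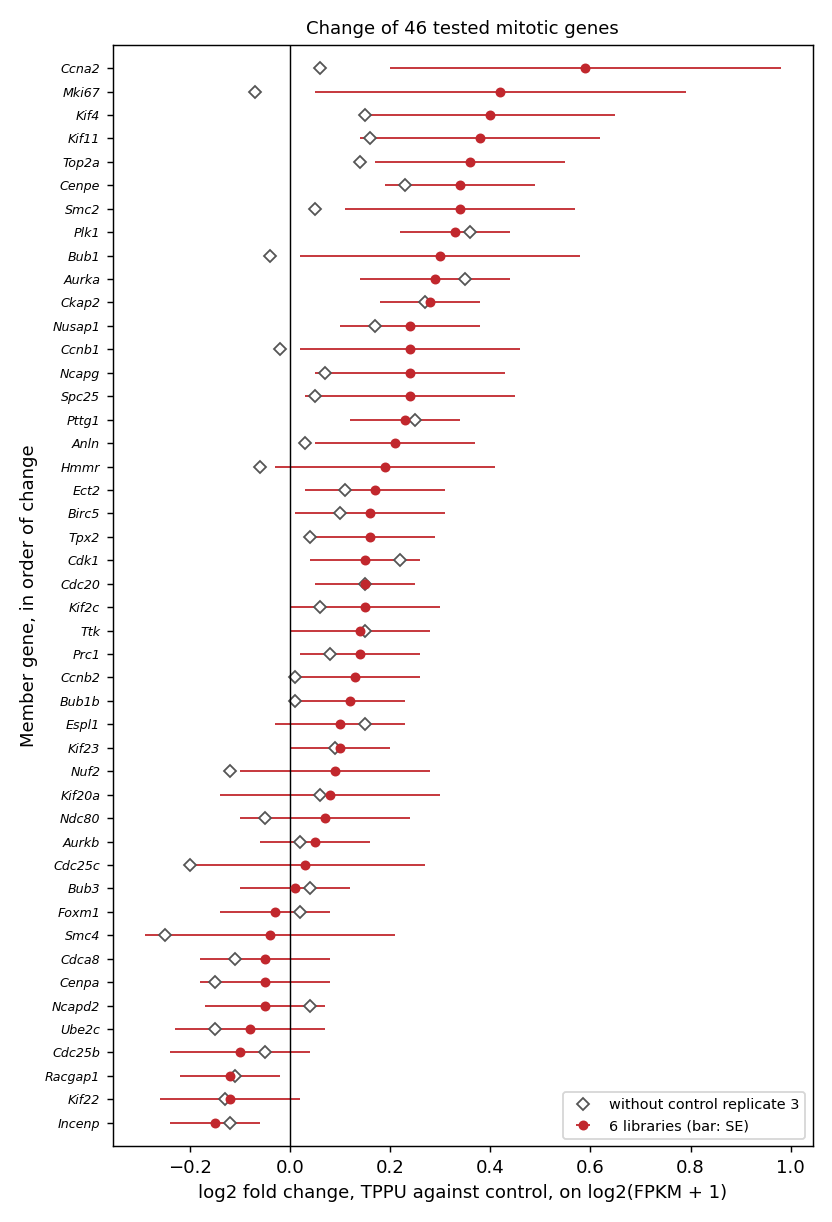
Log2 fold change of TPPU against control on log2(FPKM + 1) for the 46 tested mitotic genes, in order of size (red points, bars show the SE), with the change without control replicate 3 (open diamonds). The changes run from -0.15 (Incenp) to 0.59 (Ccna2), and the diamonds of Ccna2, Mki67, Smc2 and Bub1 lie close to 0.

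Levels per length differed widely among genes whose proteins work together. Of the 48, 12 averaged at least 10 FPKM and 8 averaged under 2 FPKM over the 6 libraries. The median tested member ranked at percentile 36.8 of all genes tested by mean FPKM. Within the passenger complex the mean FPKM was 21.1 for Incenp, 8.98 for Aurkb, 7.35 for Cdca8 and 3.76 for Birc5, and the ranges of Incenp and Aurkb over the 6 libraries did not overlap. Within the Ndc80 complex it was 2.39 for Nuf2, 1.31 for Ndc80 and 1.25 for Spc25, and the last 2 did not differ beyond their spread over libraries. These differences in level also depend on the gene lengths the authors used.

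Other genes of cell division, from lists written from textbook membership, gave no call either. Of 26 other kinetochore and centromere genes tested (35 listed), 0 passed in limma. At an unadjusted p under 0.05 in limma, 1 was higher (4.19% of all genes tested) and 1 was lower (3.7%). Groups were separated with TPPU above in 2 (7.48% of all genes) and below in 1 (7.88%). The median was 0.05, or -0.03 without control replicate 3. Cenpt, which links the centromere to the outer kinetochore, measured 5.54, 5.21 and 6.63 in the controls and 3.84, 3.87 and 3.95 with TPPU, fully separated (log2 fold change -0.47, SE 0.12, limma adjusted p = 0.402). Cenpx, a small partner in the same network, averaged 25.1 ± 3.7 and 31.9 ± 2.9 (0.34), and Cenpm 1.27 ± 0.85 and 2.20 ± 0.48 (0.55), with overlapping groups.

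Of 18 other spindle and cytokinesis genes tested, 0 passed in limma. At an unadjusted p under 0.05 in limma, 1 was higher (4.19% of all genes tested) and 0 were lower (3.7%). Changes were positive for 15 of the 18, against 54.4% of all genes tested. Their median was 0.11, or 0.06 without control replicate 3. Knstrn, a spindle and kinetochore protein gene, averaged 4.01 ± 0.75 and 5.34 ± 0.57 and Kif18b, a motor that shortens microtubules, 3.08 ± 0.18 and 3.90 ± 0.35. All TPPU values of Kif18b lay above the controls. Ndel1, a partner of LIS1 and dynein, averaged 27.8 ± 2.6 and 23.8 ± 0.68, with all TPPU values below the controls. Over the list, groups were separated with TPPU above in 2 genes (7.48% of all genes tested) and below in 1 (7.88%).

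Other regulators of G2/M, 25 tested, had a median of 0.03, or -0.02 without control replicate 3, and 0 passed in limma. At an unadjusted p under 0.05 in limma, 0 were higher (4.19% of all genes tested) and 1 was lower (3.7%). Groups were separated with TPPU above in 0 (7.48% of all genes) and below in 2 (7.88%). Ccnf, which encodes cyclin F, a part of a ubiquitin ligase, measured 1.62, 2.25 and 2.74 in the controls and 1.34, 1.24 and 1.36 with TPPU, fully separated (log2 fold change -0.46, SE 0.16, limma adjusted p = 0.564). Lin52, a subunit of the MuvB core, averaged 3.67 ± 0.36 and 2.96 ± 0.23, and Cks1b, a small protein that binds CDKs, 26.7 ± 3.4 and 30.9 ± 1.9. The first of these had separated groups and the second did not.

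For a list of 16 other genes of chromosome structure, most of them of condensin and cohesin but with Lmnb1, which encodes nuclear lamin B1, the median was 0.12, or 0.01 without control replicate 3, the lowest library for 11 of them. Lmnb1 averaged 38.2 ± 4.0 and 32.7 ± 1.2, and the cohesin genes Smc1a and Stag1 15.8 ± 2.2 and 2.39 ± 0.79 in control and 18.7 ± 1.4 and 3.03 ± 0.32 with TPPU. For 15 genes of the anaphase-promoting complex and its regulators the median was 0.02, or -0.03. Its subunit genes Anapc2, Anapc5 and Anapc11 averaged 23.1 ± 3.5, 30.8 ± 1.2 and 6.70 ± 1.2 in control and 19.3 ± 1.3, 33.4 ± 0.91 and 5.76 ± 0.39 with TPPU. In both lists 0 passed in limma, and 0 had an unadjusted p under 0.05 (4.19% higher and 3.7% lower over all genes tested).

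Genes of DNA replication and S phase, the phase before G2, were set beside the mitotic genes. Of 44 tested (46 listed), 34 had positive changes (54.4% of all genes tested) and 0 passed in limma. At an unadjusted p under 0.05 in limma, 4 were higher (4.19% of all genes) and 1 was lower (3.7%). The median of the 44 was 0.12, against 0.15 for the mitotic genes. Without control replicate 3 it was 0.11, against 0.05. Groups were separated with TPPU above in 8 of the 44 (7.48% of all genes) and below in 2 (7.88%). The difference between the lists was not tested, and both use the same libraries. Rfc4, a subunit of the clamp loader, averaged 3.29 ± 1.3 and 6.12 ± 1.7, Pole2, a subunit of DNA polymerase epsilon, 3.50 ± 1.2 and 5.37 ± 0.85, and Tk1, thymidine kinase, 3.37 ± 0.23 and 4.68 ± 0.24. Without control replicate 3 the log2 fold change went from 0.75 to 0.48 for Rfc4 and from 0.53 to 0.29 for Pole2. For Tk1 it went from 0.38 to 0.42. The median deviation of the replication genes was -0.02 in control replicate 3, against -0.21 for the mitotic genes. With the GC trend removed the value for the mitotic genes was -0.13. Median GC content was 49.4% for the replication genes and 46.9% for the mitotic genes, and its part in this contrast was not tested.

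Among 15 tested CDK inhibitors, G1 cyclins and related regulators the median was 0.03. In limma 0 passed and 0 had an unadjusted p under 0.05 (4.19% higher and 3.7% lower over all genes tested). Rbl1, a pocket protein of the DREAM complex, averaged 3.52 ± 0.95 and 4.46 ± 0.50, Ccnd3, which encodes cyclin D3, 7.98 ± 1.1 and 9.06 ± 0.76, and Cdkn1b, which encodes the CDK inhibitor p27, 7.64 ± 1.3 and 6.71 ± 0.53. The groups of all 3 genes overlapped.

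The labelled cell type was checked on marker genes. Of 10 macrophage markers, 9 averaged at least 1 FPKM in both groups, Cd68 highest, and their summed level was 2020 to 2350 in control and 2130 to 2220 with TPPU. Of 6 T cell markers 2 were in the table, Cd3d and Cd4, both at 0 in the controls and summing to at most 0.109 FPKM with TPPU. B cell markers summed to 1.10 to 2.85 and 1.54 to 2.25, most of it Cd79b. Fibroblast and chondrocyte markers summed to 1.94 to 4.89 and 1.02 to 2.32, and epithelial markers to 0.136 to 0.346 and 0.247 to 1.03. Apart from the T cell pair, the ranges of each list overlapped between the groups.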

How the data were processed

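The authors deposited 1 table of FPKM values for 18019 gene symbols in 6 libraries. Name and values of the table gave the unit. Per the submitters' processing notes the reads were placed on mm10, and per the labels' protocols dUTP marked the second strand of the cDNA. Which aligner, counter, annotation or filter was applied is not stated in these sources, so reads shared with pseudogenes or antisense genes cannot be told apart. Columns were matched to samples by library name.

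The 9728 genes that reached 1 FPKM in 3 or more libraries were tested as log2(FPKM + 1) in limma 3.58.1 (R 4.3.3), fitting group alone and a trend of variance on mean. P-values are two-sided, with Benjamini-Hochberg adjustment over all 9728 and a threshold of 0.05. The members and lists were chosen with earlier results of these data known. All 6 values are given for 30 members, 21 by role and the others because their groups did not overlap or their change was among the 6 largest or 6 most negative. Of other lists, up to 3 genes with the smallest p are named. The E2F, CHR and CCAAT letters were searched on both strands. Depth was estimated from whole-fragment steps in low values of single-transcript genes, and 93.8% to 95.3% of those values lay within 0.1 of a whole fragment count, where chance gives 20.0%. GC content, length (longest basic transcript) and positions came from GENCODE M21 and covered 97.8% of genes tested. Limma was tested on simulated data that kept each real gene's spread, 200 of 9728 changed, for TPPU against control. It recovered 41.8% at a fold of 1.5, 82.1% at 2 and 95.5% at 4. Each value's noise was drawn on its own, so the GC-linked deviations that genes of a real library share were absent. Folds were added to log2(FPKM + 1), where a fold of that size in FPKM makes a smaller step for low genes. These shares may therefore overstate what the test could recover among the mitotic genes. Scripts ran in Python 3.11.15 with scipy 1.17.1, pandas 2.3.3, numpy 2.4.6 and matplotlib 3.10.9.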

Additional observations from a re-analysis of the deposited data

How the results depend on the processing

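The count of mitotic genes past the threshold was 0 under every alternative run: quantile normalization, median-of-ratios scaling, a stricter filter (mean 5 FPKM or more) or none, pseudocounts of 0.1 and 0.5, no trend, robust empirical Bayes, sample quality weights, the replicate block, GC or length trend removed, and each library left out. Over all genes the count of 0 was 169 with sample quality weights, 5 with the GC trend removed, 0 to 6 when 1 library was left out (6 without TPPU replicate 1) and 39 without control replicate 3 and TPPU replicate 1, an exclusion chosen after the data were seen. Labels did not say what a shared replicate number means, and same-numbered libraries deviated together with r of -0.3, 0.15 and -0.4 across genes, so the numbers were not taken to pair them. With the replicate block 0 mitotic genes and 0 of all genes passed, and the median of the mitotic genes stayed at 0.15.

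That median was 0.12 to 0.18 under the other scalings, filters and models, 0.06 with quality weights, which gave control replicate 3 a weight of 0.191, and 0.05 (without control replicate 3) to 0.21 (without control replicate 1) when 1 library was left out. Its spread between libraries was 0.11 (SD). Mitotic genes with all TPPU values above the controls numbered 5, or 3 at a mean of at least 5 FPKM (24 members tested, 7.84% of all genes), 4 with median-of-ratios scaling (7.5%), quantile normalization (5.99%) or the GC trend removed (11.1%), 6 with the length trend removed (7.55%), 6 to 14 when 1 library was left out (14, 8, 7, 12, 7 and 6 without control replicates 1, 2 and 3 and TPPU replicates 1, 2 and 3, beside 11.5%, 12.2%, 17.0%, 14.5%, 11.0% and 11.9% of all genes), and 16 without control replicate 3 and TPPU replicate 1 (24.8% of all genes). Those below numbered 1, or 2 with median-of-ratios scaling (8.89% of all genes), 1 to 4 when 1 library was left out (4 without control replicate 2 and 3 without TPPU replicate 1, beside 14.4% and 14.1%, and 1 without each of the others, beside 10.3% to 12.4%) and 4 without both libraries (19.3%). Fewer libraries make separation easier by construction.

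Of the 46 tested genes, 29 kept their sign under every alternative. With quality weights the sign turned in Ccnb2 (-0.03), Cdc25c (-0.08), Bub3 (-0.06), Aurkb (-0.03), Ndc80 (-0.13), Nuf2 (-0.14), Hmmr (-0.06), Ncapd2 (0.06) and Kif20a (-0.14). It turned with quantile normalization in Cdc25c (-0.03) and Bub3 (-0.02), and with the GC trend removed, with or without the replicate block, in Foxm1 (0.03) and Bub3 (-0.07). Foxm1 was at 0.00 with the length trend removed. Without control replicate 3 and TPPU replicate 1 it turned in Ccnb2 (-0.04), Cdc25c (-0.08), Foxm1 (0.00), Bub3 (-0.03), Ndc80 (-0.14), Nuf2 (-0.11), Smc4 (0.01), Ncapd2 (0.08) and Kif20a (-0.14). When 1 library was left out it turned in 15 genes, over ranges of -0.04 to 0.50 (Bub1), -0.06 to 0.06 (Bub3), -0.02 to 0.47 (Ccnb1), -0.20 to 0.16 (Cdc25c), -0.11 to 0.06 (Cdca8), -0.15 to 0.04 (Cenpa), -0.09 to 0.03 (Foxm1), -0.06 to 0.36 (Hmmr), -0.12 to 0.28 (Kif20a), -0.07 to 0.67 (Mki67), -0.10 to 0.04 (Ncapd2), -0.05 to 0.15 (Ndc80), -0.12 to 0.22 (Nuf2), -0.25 to 0.21 (Smc4) and -0.16 to 0.07 (Ube2c). The cause of these turns was not tested.

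Among the other lists, the replication median of 0.12 was 0.07 at a mean of at least 5 FPKM and 0.08 without both libraries. The median of CDK inhibitors and G1 cyclins was -0.05 at that mean and -0.04 to 0.05 when 1 library was left out, and that of other kinetochore genes -0.03 to 0.06. Depth estimated with the longest annotated transcripts was lowest for Spc25, Cdc25c, Ncapg and Ndc80, at 16, 24, 31 and 38 fragments in their lowest library.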
